A study of Mus musculus with 18 samples.

Results

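The 4C-seq contacts of the intronic enhancer Eμ of Igh, the immunoglobulin heavy chain locus, were followed into the genes that lie beyond its 3' boundary. The region, called the near 3' flank here, is the stretch of mouse chromosome 12 from 112926025 to 113206203 (mm10), and every fragment end listed in it by at least 1 library was taken as a member. This gave 927 ends, of 56916 listed on chromosome 12 and 440025 in the whole series. The bait lay at 113426025 to 113426048, so that the flank began 220 kb from it and ended at 500 kb. Of the ends, 885 had reads in the 12 libraries with counts, 42 were listed in LPS libraries alone, 74 were listed in all 18 libraries and 87 in a single one. No end was left out by a filter, and the flank was cut into 28 windows of 10 kb that together hold every end.

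Mature B cells of the spleen, negative for CD43, came from mice mutant for Med1 or from wild type (WT) mice. Med1 belongs to Mediator, the complex that passes signals from enhancers to RNA polymerase II. The 6 groups of 3 libraries were mutant and WT cells after 2 days with LPS and IL4, mutant and WT cells resting at day 0, and, in a later deposit, mutant and WT cells after 2 days with LPS alone. The labels used here give neither the Med1 allele, the driver of any deletion, nor the age of the mice, and they do not say whether replicates are separate animals, so p-values measure the spread between these libraries, which may be technical. Titles with WTKO stand beside the genotype WT in the first deposit, and the genotype was taken as the group. For replicate 2 of the WT LPS+IL4 group the culture note names anti-CD40 in place of LPS, and results without that library are given below. 4C-seq reads DNA and not RNA, so neither the loss of Med1 nor the cell type could be checked.

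The 12 libraries with counts held 2470497 to 21074434 reads, and the 6 LPS libraries give covered ends but no read numbers, so their depth is unknown. A share below is the percentage of a library's chromosome 12 reads that lay over 5 kb from the bait. The libraries with counts formed 2 sets that no label names. At 90 ends of chromosome 12, 8 of them in the flank, 50 reads or more were found in at least 5 of the 6 libraries of the second set, which holds WT replicate 3 with mutant replicates 2 and 3, and in none of the 6 of the first set. The reverse was seen at 1 end, which is not in the flank. The 8 flank ends lay between 113150941 and 113202062.

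Chromosomes are folded into domains within which enhancers and promoters meet more often than across the borders, and many borders are held by the protein CTCF. At the 3' end of Igh a cluster of CTCF sites follows the 3' regulatory region (3'RR), the enhancers that act in class switching, in which a B cell joins another constant gene to its variable exon. The genes beyond these sites are not part of the antibody locus. Tmem121, which encodes a transmembrane protein, is the nearest to the bait, followed by Tedc1 (a partner of delta and epsilon tubulin), the small LIM domain genes Crip1 and Crip2 with the predicted gene Gm30599 between them, and Mta1, a subunit of the NuRD chromatin remodelling complex. Farther out lie Tex22 (a testis expressed gene), Pacs2 (a sorting protein active at contacts of the endoplasmic reticulum with mitochondria), Brf1 (a subunit of the RNA polymerase III factor TFIIIB), Btbd6 (an adaptor of Cul3 ubiquitin ligases), Nudt14 (a UDP-sugar diphosphatase) and Jag2 (a ligand of Notch receptors).

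A 4C end can be read only beside a DpnII site, and all 269 listed intervals that lay inside a chromosome 12 promoter window of the RefSeq table adjoined the letters GATC. The 300 bases around the starts of Crip1, Crip2 (its upstream start), Btbd6 and Nudt14 are shown because each holds such a site with a listed end, and those around the start of Tmem121 because the gene nearest to the bait holds none. They are RefSeq sequences of GRCm38.p6 in the direction of transcription, with the DpnII site GATC in capitals, and lie at chr12:113151762-113152061, chr12:113139986-113140285, chr12:112976232-112976531, chr12:112942093-112942392 and chr12:113185653-113185952, on the plus strand except that of Nudt14, on the minus strand.

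Crip1 promoter: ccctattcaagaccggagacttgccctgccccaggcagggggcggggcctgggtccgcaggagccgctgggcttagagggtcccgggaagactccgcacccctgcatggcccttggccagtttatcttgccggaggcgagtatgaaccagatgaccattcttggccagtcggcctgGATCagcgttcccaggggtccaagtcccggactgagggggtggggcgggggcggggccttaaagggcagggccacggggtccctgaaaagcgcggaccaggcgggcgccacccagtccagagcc

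Crip2 promoter: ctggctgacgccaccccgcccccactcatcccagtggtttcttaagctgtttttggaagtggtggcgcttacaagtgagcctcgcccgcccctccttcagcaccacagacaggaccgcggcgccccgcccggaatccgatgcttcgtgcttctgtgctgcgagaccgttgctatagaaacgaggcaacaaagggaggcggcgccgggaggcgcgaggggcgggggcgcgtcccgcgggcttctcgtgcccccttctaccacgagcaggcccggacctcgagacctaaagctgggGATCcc

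Btbd6 promoter: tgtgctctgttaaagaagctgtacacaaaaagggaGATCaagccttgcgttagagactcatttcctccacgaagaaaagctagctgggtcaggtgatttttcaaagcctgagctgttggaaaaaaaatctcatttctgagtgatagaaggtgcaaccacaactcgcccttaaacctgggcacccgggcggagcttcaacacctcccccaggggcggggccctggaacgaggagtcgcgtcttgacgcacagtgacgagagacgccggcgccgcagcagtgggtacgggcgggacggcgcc

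Nudt14 promoter: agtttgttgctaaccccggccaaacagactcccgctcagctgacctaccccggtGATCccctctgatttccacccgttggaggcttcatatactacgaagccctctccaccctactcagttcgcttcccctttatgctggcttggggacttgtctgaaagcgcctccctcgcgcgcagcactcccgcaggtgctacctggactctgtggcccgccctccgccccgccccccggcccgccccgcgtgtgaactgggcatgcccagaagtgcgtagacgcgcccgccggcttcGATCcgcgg

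Tmem121 promoter: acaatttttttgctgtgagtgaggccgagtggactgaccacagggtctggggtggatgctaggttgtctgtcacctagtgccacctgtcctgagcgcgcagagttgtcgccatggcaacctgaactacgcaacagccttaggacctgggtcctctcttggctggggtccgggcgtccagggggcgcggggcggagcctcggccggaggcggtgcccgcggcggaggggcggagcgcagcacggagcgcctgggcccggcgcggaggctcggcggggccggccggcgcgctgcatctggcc

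The ends that were read there start with the DpnII site and run for 28 bases, shown in the direction of the read, which is the plus strand for Crip1, Btbd6 and Nudt14 and the minus strand for Crip2. Of the 3 ends in the Nudt14 promoter, the most read is shown.

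Crip1 end: GATCagcgttcccaggggtccaagtccc

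Crip2 end: GATCcccagctttaggtctcgaggtccg

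Btbd6 end: GATCaagccttgcgttagagactcattt

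Nudt14 end: GATCaccggggtaggtcagctgagcggg

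The Crip1 end (113151942 to 113151965) and the Crip2 end (113140256 to 113140279) were each covered in all 18 libraries, the Btbd6 end (112976271 to 112976294) in 17 and the Nudt14 end (112942339 to 112942362) in 12. The Crip2 end held 5.67e-04, 7.16e-04 and 0.00113% in the mutant LPS+IL4 libraries, against 0.00187, 0.00132 and 0.00213% in the mutant resting libraries. In WT it held 1.00e-03, 7.31e-04 and 7.27e-04% in the WT LPS+IL4 libraries, against 0.00182, 0.00200 and 0.00208% in the WT resting libraries. In both genotypes every LPS+IL4 library was below every resting library of that genotype at this end. The share of all ends at which this is seen was not counted. The Crip1 end held 0.0212, 0.025 and 0.0206% in the mutant LPS+IL4 libraries, against 0.0386, 0.00897 and 0.0295% in the mutant resting libraries. Its WT values were 0.0305, 0.0139 and 0.0180% in the WT LPS+IL4 libraries, against 0.0213, 0.0439 and 0.0331% in the WT resting libraries. The Crip1 groups overlapped in both genotypes. The Btbd6 end held 8.83e-04, 0.00326 and 0.00286% in the mutant LPS+IL4 libraries, against 0.00837, 0.00296 and 0.00364% in the mutant resting libraries, and 0.00314, 0.00481 and 0.00187% in the WT LPS+IL4 libraries, against 0.00627, 0.00300 and 0.00693% in the WT resting libraries. The Nudt14 end held 0.00580, 0 and 0.0546% in the mutant LPS+IL4 libraries, against 0.0117, 0.0183 and 0.0186% in the mutant resting libraries, and 0.00496, 0.0172 and 0.0156% in the WT LPS+IL4 libraries, against 0.00127, 0.0153 and 0.0168% in the WT resting libraries. Both of these also overlapped in each genotype, the highest value at Nudt14 being that of mutant LPS+IL4 replicate 3, and no single end was tested. These values rest on 9 to 73 reads per library at the Crip2 end, 109 to 2552 at Crip1, 14 to 332 at Btbd6 and 0 to 727 at Nudt14. The other 2 ends in the Nudt14 promoter averaged 1.10e-04% and 2.04e-04% over the 12 libraries. The 9 flank genes with an entry in the promoter table had 11 promoter windows, of which 5 held GATC (Nudt14, Btbd6, Mta1, Crip2 and Crip1), against 46.6% of all 21263 windows.

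Contacts of Eμ with the flank fell with LPS and IL4 in both genotypes. The flank held 5.59, 4.89 and 4.81% of the reads in the mutant LPS+IL4 libraries, against 7.16, 6.80 and 6.76% in the mutant resting libraries. It held 5.17, 5.05 and 4.79% in the WT LPS+IL4 libraries, against 7.96, 7.31 and 7.13% in the WT resting libraries. Every LPS+IL4 library was below every resting library, whichever the genotype. The means were 5.10% ± 0.430 against 6.90% ± 0.221 in the mutant and 5.0% ± 0.192 against 7.47% ± 0.436 in WT (SD, n = 3 each). By edgeR's quasi-likelihood test, with p adjusted for 21 Igh locus elements (Benjamini-Hochberg), the log2 change was -0.44 ± 0.07 (SE, adjusted p = 1.04e-04) in the mutant and -0.58 ± 0.07 (SE, adjusted p = 7.00e-06) in WT. Of the 21 elements, 66.7% passed in the mutant and 57.1% in WT. The change in the mutant minus the change in WT was 0.14 ± 0.10 (SE, adjusted p = 0.633), so a difference between the genotypes was not detected. In a population of cells, contact in fewer cells and less contact per cell cannot be told apart.

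The same held within the library sets. In the first set, of 1 mutant and 2 WT libraries per condition, the log2 change was -0.36 in the mutant and -0.58 in WT, and in the second set, of 2 mutant and 1 WT libraries per condition, it was -0.48 and -0.57. Without WT LPS+IL4 replicate 2, the library with the anti-CD40 note, the WT change was -0.58. Shares are parts of 1 total, so that a fall of the flank and a rise elsewhere on the chromosome are not independent measurements.

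**Figure D1:**
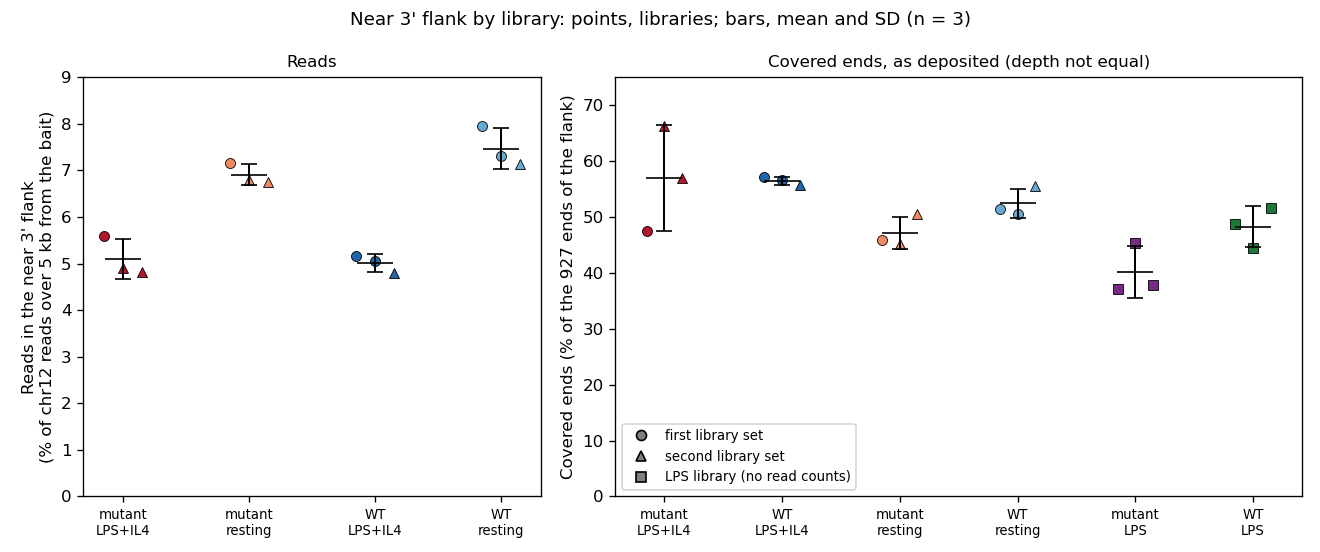
Left, the share of reads in the near 3' flank (percent of chromosome 12 reads over 5 kb from the bait) in the 12 libraries with counts; right, the percentage of the 927 flank ends that each of the 18 libraries covers. Points are libraries, shaped by library set, and bars are the mean and SD of 3. The LPS+IL4 libraries hold 4.79 to 5.59% of the reads and the resting libraries 6.76 to 7.96%.

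Per 10 kb, the flank held 0.182% of the reads in mutant LPS+IL4 cells against 0.246% in mutant resting cells, and 0.179% in WT LPS+IL4 cells against 0.266% in WT resting cells. The far 3' flank, from 500 kb to 1 Mb from the bait, held 0.0561%, 0.0738%, 0.0521% and 0.0749% per 10 kb in the same order. The stretch between the 3'RR and the flank, in which the 3' CTCF sites lie, held 0.908%, 0.885%, 0.927% and 0.859%. Contact per length thus stepped down from that stretch to the near flank and again to the far flank in each of the 4 groups. With LPS and IL4 the far flank changed by -0.39 ± 0.10 in the mutant and -0.52 ± 0.10 in WT on the log2 scale, and the 3'RR by 0.84 ± 0.13 and 0.59 ± 0.13. The log2 ratio of near to far flank reads was 1.01, 0.764 and 0.801 in the mutant LPS+IL4 libraries, against 0.994, 0.956 and 0.767 in the mutant resting libraries. It was 0.967, 0.828 and 1.05 in the WT LPS+IL4 libraries, against 1.21, 0.881 and 0.899 in the WT resting libraries. These overlapped, and the mean change with LPS and IL4 was -0.05 (exact permutation test within genotype, two-sided, p = 0.525, adjusted over 6 tests 0.726).

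Within the flank the contacts were uneven. Reads peaked 265 to 275 kb from the bait, over Tedc1, Crip1 and Gm30599, and were low at the bait-side edge and inside Pacs2. The highest window, 113146025 to 113156024, spans Gm30599 and Crip1 and held 0.575, 0.550 and 0.573% in the mutant LPS+IL4 libraries, against 1.04, 1.12 and 0.933% in the mutant resting libraries. In WT it held 0.620, 0.464 and 0.570% in the WT LPS+IL4 libraries, against 1.22, 1.14 and 1.07% in the WT resting libraries. The lowest window, 113196025 to 113206024, is the nearest of all to the bait and averaged 0.0281% over the 12 libraries, with 16 ends listed, against 61 in the highest. The number of ends listed moves with the number of DpnII sites, and its part in the level of a window was not tested. The third highest window (113166025 to 113176024), between Tedc1 and Tmem121, averaged 0.465%, the window at the start of Tmem121 (113176025 to 113186024) 0.404% and that at the start of Mta1 (113096025 to 113106024) 0.186%. The next lowest windows lay inside Pacs2 (113036025 to 113046024, mean 0.0302%) and over Tex22 (113076025 to 113086024, mean 0.0700%).

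**Figure D2:**
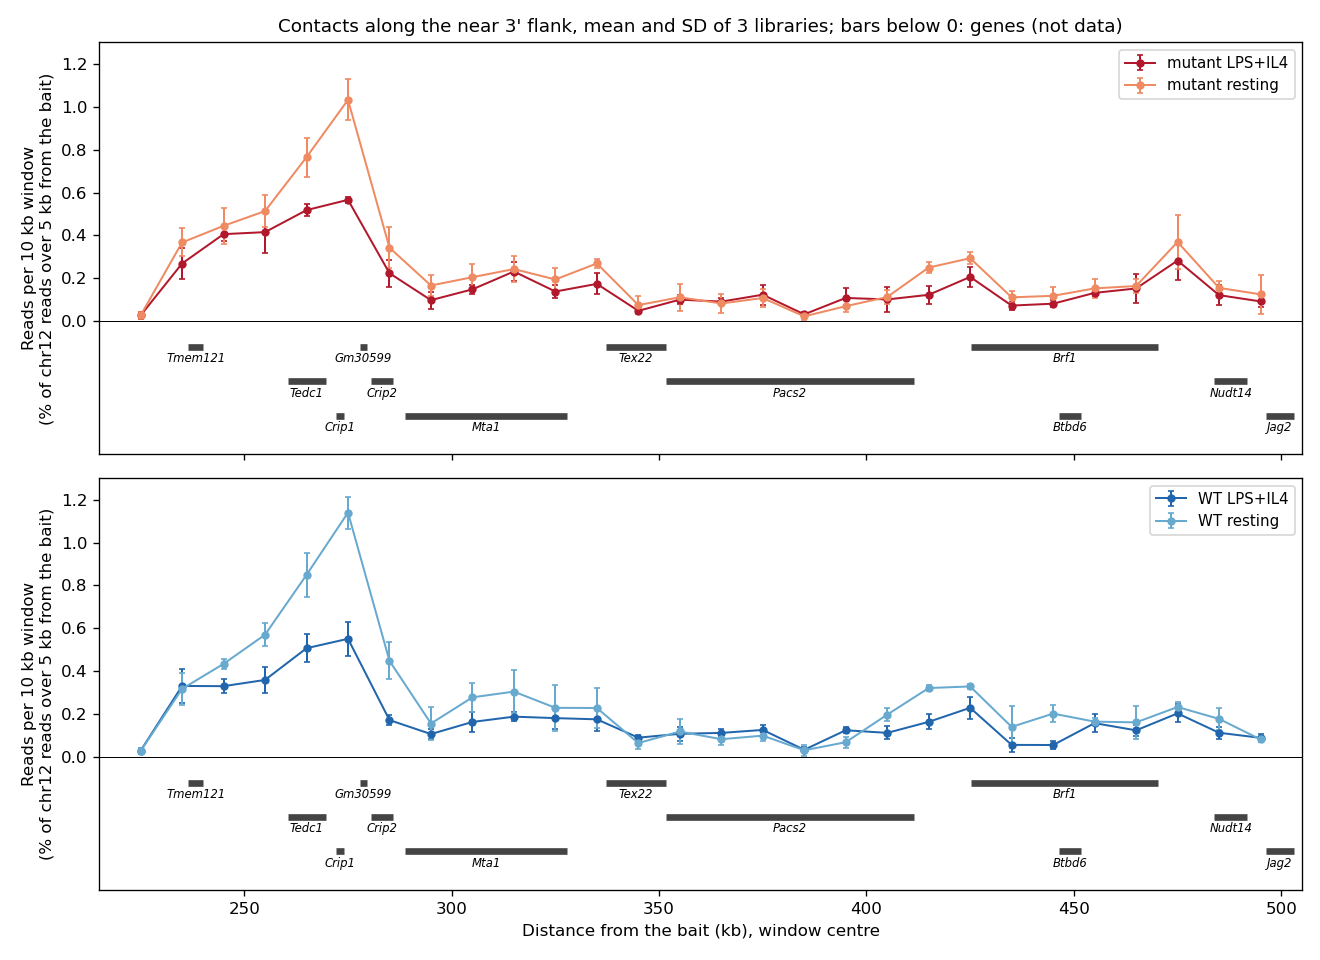
Reads per 10 kb window (percent of chromosome 12 reads over 5 kb from the bait) against the distance of the window centre from the bait in kb, for the mutant (upper panel) and WT (lower panel); points and bars are the mean and SD of 3 libraries, and the grey bars below 0 mark the 12 genes, with Jag2 drawn up to the edge of the flank. The peak over Tedc1, Crip1 and Gm30599 is lower with LPS+IL4, at 0.566% against 1.03% at rest in the mutant and 0.551% against 1.14% in WT.

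The windows called lower with LPS and IL4 lay around Crip1, Crip2, Gm30599 and Tedc1, with 1 more at Btbd6. In the mutant 1 of the 28 windows passed an adjusted p of 0.05, and it was lower (1.5% of all 399 windows tested were lower at this threshold). In WT 4 of the 28 passed, all lower (2.76% of the 399). The window of Gm30599 and Crip1 passed in both, with a log2 change of -0.87 ± 0.15 (SE, adjusted p = 0.00116) in the mutant and -1.05 ± 0.15 (SE, adjusted p = 1.18e-04) in WT. Within the library sets the changes in mutant and WT were -0.85 and -1.12 in the first and -0.87 and -0.90 in the second.

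The window of Tedc1 (113156025 to 113166024) held 0.545, 0.518 and 0.491% in the mutant LPS+IL4 libraries, against 0.706, 0.870 and 0.719% in the mutant resting libraries. In WT it held 0.535, 0.434 and 0.553% in the WT LPS+IL4 libraries, against 0.966, 0.782 and 0.799% in the WT resting libraries. The groups did not overlap in either genotype, and the log2 change was -0.56 ± 0.17 (SE, adjusted p = 0.0812) in the mutant and -0.74 ± 0.17 (SE, adjusted p = 0.00989) in WT. The window with the end of Mta1 and the start of Crip2 (113136025 to 113146024) held 0.296, 0.188 and 0.189% in the mutant LPS+IL4 libraries, against 0.402, 0.393 and 0.234% in the mutant resting libraries. In WT it held 0.20, 0.158 and 0.159% in the WT LPS+IL4 libraries, against 0.520, 0.472 and 0.354% in the WT resting libraries. The mutant groups overlapped through resting replicate 3, and the WT groups did not; the log2 change was -0.61 ± 0.28 (SE, adjusted p = 0.440) in the mutant and -1.38 ± 0.28 (SE, adjusted p = 0.00515) in WT.

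The remaining WT call lay farther out, in the window of Btbd6 within Brf1 (112976025 to 112986024). It held 0.0936, 0.0629 and 0.0900% in the mutant LPS+IL4 libraries, against 0.0733, 0.153 and 0.129% in the mutant resting libraries. In WT it held 0.0765, 0.0422 and 0.0498% in the WT LPS+IL4 libraries, against 0.248, 0.183 and 0.177% in the WT resting libraries. The mutant groups overlapped there and the WT groups stood apart, at -0.53 ± 0.40 (SE, adjusted p = 0.724) and -1.85 ± 0.41 (SE, adjusted p = 0.00989) on the log2 scale. Between the genotypes this change differed by 1.32 ± 0.57, with an adjusted p from edgeR of 0.997. Within the first library set the mutant change was 0.35 and within the second -0.89.

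The windows next to the bait side of Tedc1 and at 2 gene starts were not called. The third highest window, between Tedc1 and Tmem121, held 0.523, 0.386 and 0.338% in the mutant LPS+IL4 libraries, against 0.437, 0.590 and 0.515% in the mutant resting libraries. Its WT values were 0.386, 0.290 and 0.402% in the WT LPS+IL4 libraries, against 0.513, 0.621 and 0.577% in the WT resting libraries. Only the mutant groups overlapped, and the log2 change was -0.31 ± 0.21 (SE, adjusted p = 0.724) in the mutant and -0.67 ± 0.22 (SE, adjusted p = 0.107) in WT. The window at the start of Tmem121 had -0.13 ± 0.20 (SE, adjusted p = 0.922) in the mutant, with overlap, and -0.39 ± 0.20 (SE, adjusted p = 0.445) in WT, without. The window at the start of Mta1 had -0.49 ± 0.38 (SE, adjusted p = 0.730) in the mutant and -0.34 ± 0.38 (SE, adjusted p = 0.925) in WT, with overlap in both genotypes.

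Over all 28 windows the log2 change was below 0 in 24 in the mutant and 20 in WT, against 48.9% and 45.1% of all windows tested. The median was -0.41 in the mutant and -0.39 in WT, beside 0.05 and 0.08 over all windows. In 5 windows every mutant LPS+IL4 library was below every mutant resting library (background 6.52%), and in 9 windows this held in WT (background 9.02%). The opposite was seen in 0 and 1 windows (background 9.77% and 12.8%). Of the 5 windows wholly inside Pacs2, 4 (113026025 to 113066024) had log2 changes above 0 in both genotypes, of 0.14 to 0.63 in the mutant and 0.10 to 0.85 in WT. In the remaining one, 113016025 to 113026024, the change was -0.15 in the mutant and -0.81 in WT, where every LPS+IL4 library was below every resting library. By edgeR none of the 5 passed the test in either genotype.

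**Figure D3:**
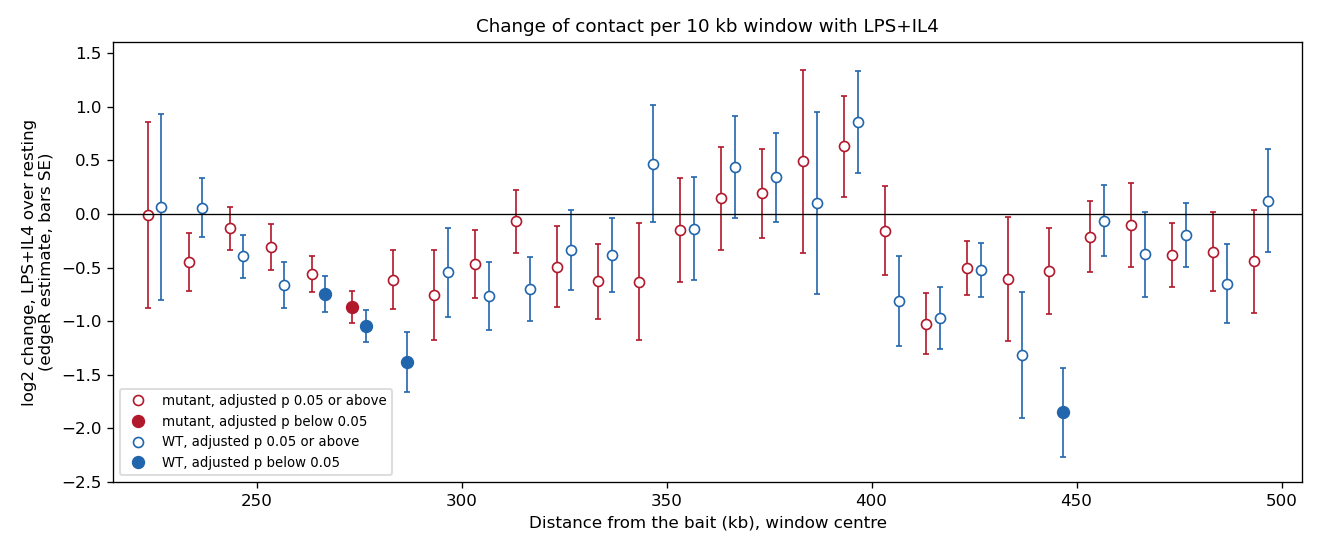
Log2 change with LPS+IL4 over resting (edgeR estimate, bars SE) for each 10 kb window, against the distance of its centre from the bait in kb; red is the mutant, blue is WT, and filled points have an adjusted p below 0.05. The filled points are 1 window in the mutant and 4 in WT, all below 0.

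Single libraries decided some of the window calls. Without WT resting replicate 1 or without WT LPS+IL4 replicate 2, the one with the anti-CD40 note, 2 windows passed in WT. The Btbd6 window then had a log2 change of -1.68 and -1.68 (adjusted p = 0.0548 and 0.0763), and -1.77 without WT LPS+IL4 replicate 3 (adjusted p = 0.0607). The Tedc1 window had -0.64 and -0.64 without the same 2 libraries (adjusted p = 0.0557 and 0.0779). In the mutant, the window at the start of Pacs2 (113006025 to 113016024) had a log2 change of -1.02 ± 0.29 (SE, adjusted p = 0.0630), and -1.33 without mutant LPS+IL4 replicate 1 (adjusted p = 0.0136), which made 2 windows. In WT, where it was not called, this window held 0.146, 0.204 and 0.143% in the LPS+IL4 libraries, against 0.328, 0.307 and 0.331% in the resting libraries. Its WT log2 change was -1.02 with DESeq2 (adjusted p = 0.0291). With edgeR fitted to the compared groups alone it was -0.97 (adjusted p = 0.0397). When covered ends were counted in place of reads, 0 windows passed in either genotype by edgeR.

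The ends were also assigned to their nearest protein-coding gene up to 10 kb away, and all 12 genes of the flank passed the minimum mean of 10 reads. Jag2 runs past the far edge of the flank to 112907803, and its 91 ends lie on both sides of that edge. The window that holds its part of the flank lists 28 ends. In the mutant 1 gene passed an adjusted p of 0.05, lower with LPS and IL4 (0.486% of 617 chromosome 12 genes were). In WT 5 passed, all lower (1.62% of the 617). Gm30599 was the gene called in both. Its ends held 0.357, 0.346 and 0.352% in the mutant LPS+IL4 libraries, against 0.664, 0.702 and 0.511% in the mutant resting libraries, and 0.447, 0.256 and 0.350% in the WT LPS+IL4 libraries, against 0.931, 0.833 and 0.723% in the WT resting libraries. The groups did not overlap in either genotype, and the log2 change was -0.83 ± 0.20 (SE, adjusted p = 0.0306) in the mutant and -1.24 ± 0.21 (SE, adjusted p = 7.44e-04) in WT. Gm30599 is a predicted gene, and no role is given for it here.

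Tedc1 held 1.10, 0.914 and 0.873% in the mutant LPS+IL4 libraries, against 1.27, 1.58 and 1.31% in the mutant resting libraries, and 0.893, 0.776 and 1.05% in the WT LPS+IL4 libraries, against 1.53, 1.42 and 1.44% in the WT resting libraries. Its groups did not overlap in either genotype, with a log2 change of -0.53 ± 0.14 (SE, adjusted p = 0.0633) in the mutant and -0.69 ± 0.15 (SE, adjusted p = 0.00751) in WT. Crip2 held 0.252, 0.166 and 0.156% in the mutant LPS+IL4 libraries, against 0.344, 0.363 and 0.117% in the mutant resting libraries, and 0.158, 0.135 and 0.139% in the WT LPS+IL4 libraries, against 0.435, 0.391 and 0.281% in the WT resting libraries. Mutant resting replicate 3 lay below all the mutant LPS+IL4 libraries and the WT groups did not overlap, and the log2 change was -0.52 ± 0.32 (SE, adjusted p = 0.547) in the mutant and -1.36 ± 0.33 (SE, adjusted p = 0.0212) in WT. Crip1, the other LIM gene, held 0.0964, 0.126 and 0.148% in the mutant LPS+IL4 libraries, against 0.188, 0.247 and 0.249% in the mutant resting libraries, and 0.104, 0.119 and 0.118% in the WT LPS+IL4 libraries, against 0.171, 0.180 and 0.215% in the WT resting libraries. The Crip1 groups did not overlap in either genotype, but its log2 changes of -0.89 ± 0.32 (SE, adjusted p = 0.205) in the mutant and -0.73 ± 0.32 (SE, adjusted p = 0.302) in WT did not pass the test.

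Mta1 held 0.712, 0.662 and 0.655% in the mutant LPS+IL4 libraries, against 0.909, 0.840 and 1.08% in the mutant resting libraries, and 0.720, 0.833 and 0.556% in the WT LPS+IL4 libraries, against 1.24, 1.07 and 1.06% in the WT resting libraries. The groups did not overlap in either genotype, with a log2 change of -0.48 ± 0.16 (SE, adjusted p = 0.163) in the mutant and -0.67 ± 0.16 (SE, adjusted p = 0.0222) in WT. Brf1 held 0.825, 0.789 and 0.923% in the mutant LPS+IL4 libraries, against 1.26, 1.06 and 1.16% in the mutant resting libraries, and 0.760, 0.862 and 0.678% in the WT LPS+IL4 libraries, against 1.16, 0.976 and 1.22% in the WT resting libraries. It too showed no overlap, with -0.46 ± 0.15 (SE, adjusted p = 0.141) in the mutant and -0.55 ± 0.15 (SE, adjusted p = 0.0498) in WT, the WT value close to the threshold.

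The other 6 genes did not pass in either genotype. Tmem121, the nearest to the bait, held 0.779, 0.661 and 0.587% in the mutant LPS+IL4 libraries, against 0.978, 0.743 and 0.716% in the mutant resting libraries, and 0.593, 0.683 and 0.709% in the WT LPS+IL4 libraries, against 0.855, 0.711 and 0.690% in the WT resting libraries. Its groups overlapped, and its log2 change was -0.27 ± 0.17 (SE, adjusted p = 0.578) in the mutant and -0.18 ± 0.17 (SE, adjusted p = 0.762) in WT. Pacs2, which has the most ends, held 0.733, 0.640 and 0.521% in the mutant LPS+IL4 libraries, against 0.609, 0.613 and 0.779% in the mutant resting libraries, and 0.794, 0.764 and 0.601% in the WT LPS+IL4 libraries, against 0.722, 0.899 and 0.738% in the WT resting libraries. Its log2 change was -0.08 ± 0.18 (SE, adjusted p = 0.920) in the mutant and -0.13 ± 0.18 (SE, adjusted p = 0.841) in WT. The log2 changes in mutant and WT were -0.16 and -1.18 for Btbd6 and -0.42 and -0.70 for Nudt14. They were -0.42 and 0.09 for Tex22 and -0.05 and 0.33 for Jag2. Over the 12 genes the median was -0.44 in the mutant and -0.68 in WT, beside -0.27 and -0.03 over the 617 genes. The groups did not overlap, with LPS+IL4 lower, for 5 genes in the mutant (background 9.72%) and 8 in WT (background 9.4%). The opposite order was seen for Jag2 in WT. It held 0.292, 0.225 and 0.216% in the WT LPS+IL4 libraries, against 0.198, 0.189 and 0.197% in the WT resting libraries. The share of all genes with that order is not given here.

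**Figure D4:**
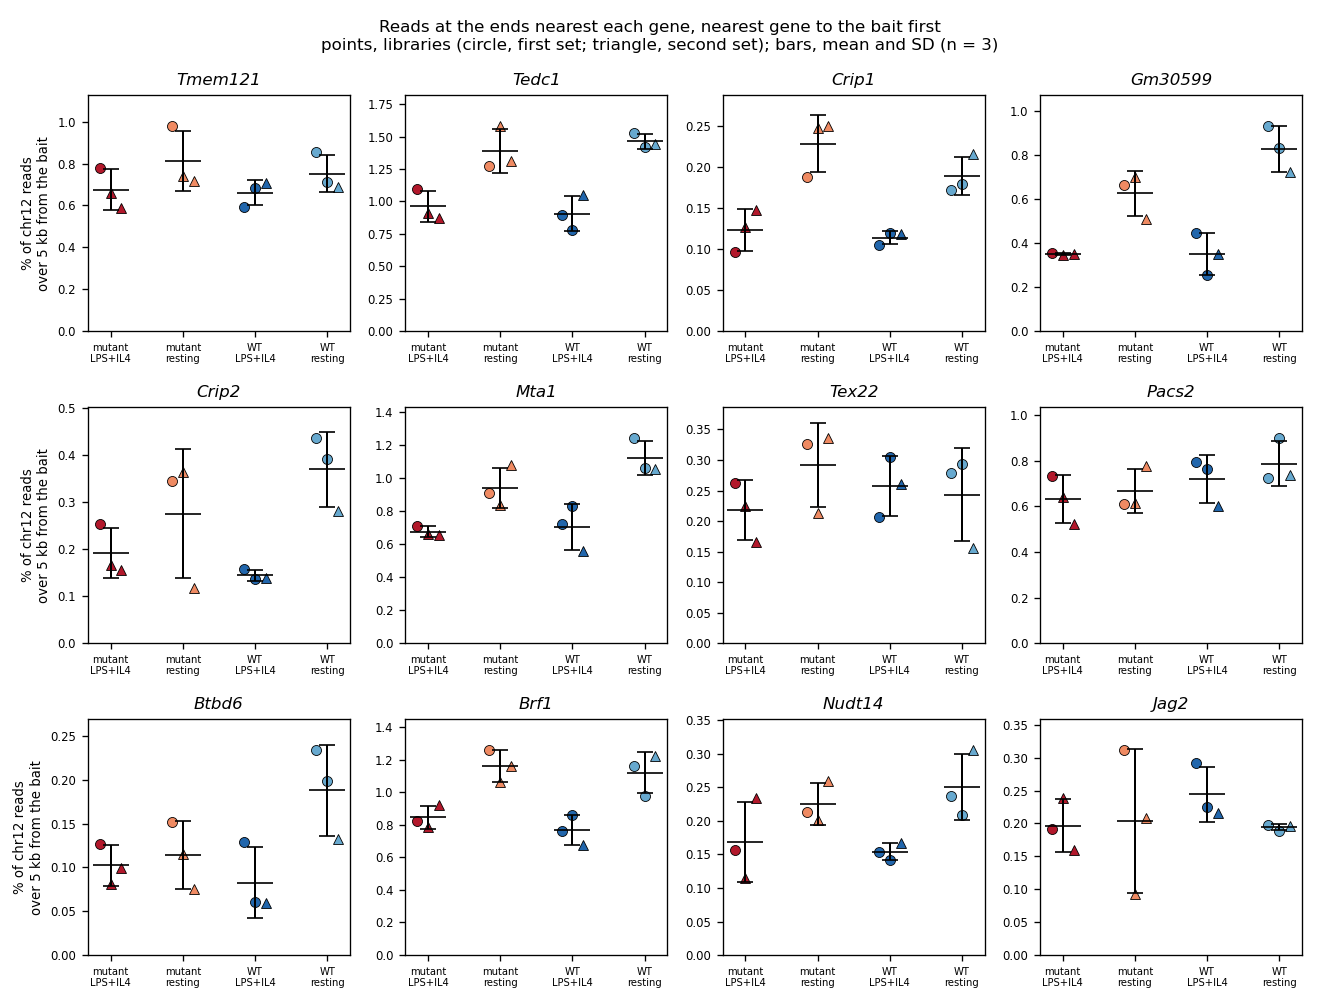
Reads at the ends assigned to each of the 12 genes (percent of chromosome 12 reads over 5 kb from the bait), in order of distance from the bait; points are libraries, shaped by library set, bars are the mean and SD of 3, and each panel has its own axis from 0. The LPS+IL4 libraries lie below the resting ones of the same genotype for Tedc1, Crip1, Gm30599, Mta1 and Brf1, and overlap them for Tmem121, Tex22 and Pacs2. For Jag2, whose ends lie partly beyond the flank, they lie above the resting ones in WT and overlap them in the mutant.

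Gene calls also rested on single libraries and on settings. Of the WT calls, those of Gm30599 and Tedc1 held without each library in turn, and 2 genes passed without WT resting replicate 1, or without replicate 1 or 3 of WT LPS+IL4. Crip2 had a log2 change of -1.22 and -1.32 without WT resting replicates 1 and 2, and -1.43, -1.32 and -1.33 without WT LPS+IL4 replicates 1, 2 and 3 (adjusted p = 0.0860, 0.0818, 0.0623, 0.0739 and 0.0940). Mta1 had -0.59 without WT resting replicate 1, and -0.69 and -0.53 without WT LPS+IL4 replicates 1 and 3 (adjusted p = 0.0985, 0.0636 and 0.211). Brf1 had -0.52 and -0.48 without WT resting replicates 1 and 3, and -0.54 and -0.47 without WT LPS+IL4 replicates 1 and 3 (adjusted p = 0.121, 0.182, 0.127 and 0.299). In the mutant, Gm30599 had -0.79 and -0.74 without resting replicates 1 and 2, and -0.84, -0.82 and -0.83 without LPS+IL4 replicates 1, 2 and 3 (adjusted p = 0.0962, 0.113, 0.0892, 0.138 and 0.0950).

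Under the other settings every one of these genes lost its call at least once, with the same sign. The adjusted p of Gm30599 was 0.156 in WT on covered ends. In the mutant it was 0.400 with TMM factors, 0.168 with DESeq2, 0.203 on covered ends and 0.0687 with reads capped at the 99th percentile. For Tedc1 in WT it was 0.121 with TMM factors, 0.0768 with DESeq2 and 0.118 on covered ends. For Crip2 in WT it was 0.0603 with TMM factors and 0.262 on covered ends, and for Mta1 in WT 0.114 with TMM factors and 0.0503 with the reads within 1 Mb as library size. Brf1 lost its WT call in 7 of 13 such settings, with an adjusted p of up to 0.268. On covered ends Tedc1, Mta1 and Brf1 passed in the mutant by edgeR (adjusted p = 0.00302, 0.0363 and 0.0203). These values are parts of all covered chromosome 12 ends, at unequal depth. In the mutant, the mean percentage of a gene's own ends that was covered, without thinning, did not fall for Tedc1, Mta1 and Brf1. In mutant LPS+IL4 against mutant resting it was 64.8 against 64.4% for Tedc1, 61.3 against 54.1% for Mta1 and 56.7 against 49.1% for Brf1. The Tedc1 libraries covered 48, 67 and 58 ends against 50, 59 and 63, the 67 being in the library with 21074434 reads. In WT the mean was lower with LPS+IL4 for Gm30599 (67.8 against 76.7%), Crip2 (62.3 against 71.0%) and Mta1 (61.5 against 62.7%). It was higher for Tedc1 (64.8 against 64.0%) and Brf1 (56.3 against 51.1%).

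Single ends carried part of this. The 10 most read ends of each library held 16.2 to 23.9% of its flank reads. The most read end on average, at 113147617 to 113147640 in Gm30599, was covered in all 18 libraries. It held 0.142, 0.130 and 0.15% in the mutant LPS+IL4 libraries, against 0.232, 0.184 and 0.161% in the mutant resting libraries, and 0.243, 0.0973 and 0.0910% in the WT LPS+IL4 libraries, against 0.338, 0.402 and 0.247% in the WT resting libraries. Each LPS+IL4 library was below each resting library of its genotype, but the share of all ends with this order was not counted. The closest values at this end were 0.15 against 0.161% in the mutant and 0.243 against 0.247% in WT. The next, at 113168722 to 113168745 between Tedc1 and Tmem121, averaged 0.123% over the 12 libraries and was covered in 17 of the 18. The ends at 113148580 (beside Gm30599), 113165153 (in Tedc1) and 113155517 (next to the start of Tedc1) averaged 0.111%, 0.102% and 0.101%, and each was covered in all 18.

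The 8 ends that separate the library sets lay at the peak and on its bait side, 6 of them in the windows of Gm30599 with Crip1 and of Tedc1. They held 3.0 to 7.97% of the flank reads in the second set and 0.00412 to 0.0415% in the first. Without them the log2 change with LPS and IL4 in the window of Gm30599 with Crip1 was -0.84 in the mutant and -1.03 in WT (adjusted p = 0.00189 and 1.64e-04), and both calls stayed. Of the LPS libraries, the mutant ones covered 8, 8 and 4 of the 8 and the WT ones 8, 7 and 8.

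The split of the flank reads between its nearer and farther parts was compared next. The bait-near part of the flank, its nearer 140 kb, held 67.03, 67.2 and 63.9% of the flank reads in the mutant LPS+IL4 libraries, against 67.9, 71.1 and 67.9% in the mutant resting libraries. It held 65.2, 64.1 and 68.5% in the WT LPS+IL4 libraries, against 70.6, 70.4 and 66.6% in the WT resting libraries. The mean difference over both genotypes was -3.09 percentage points (exact permutation test within genotype, two-sided, p = 0.0350, adjusted 0.210, the smallest possible p being 0.00500), with -3.34 and -1.02 within the first and second library sets.

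Ends within 2 kb of the start of a protein-coding gene numbered 134, which is 14.5% of the flank ends. They held 20.9, 15.6 and 17.7% of the flank reads in the mutant LPS+IL4 libraries, against 21.2, 20.1 and 16.0% in the mutant resting libraries. In WT they held 17.96, 15.4 and 16.7% in the LPS+IL4 libraries, against 20.1, 18.3 and 19.3% in the resting libraries. Each library thus gave the ends at gene starts a larger part of its reads than of the ends listed. The starts of Crip1 and Tedc1 lie in windows averaging 0.822% and 0.660% over the 12 libraries. Those of Jag2 and Btbd6 lie in windows averaging 0.0975% and 0.115%. The ends were not matched for position, so a preference for gene starts was not tested. With LPS and IL4 the share at gene starts changed by -1.80 percentage points (exact permutation test within genotype, two-sided, p = 0.15, adjusted 0.450). Ends in gene bodies away from starts held 45.4 to 57.3% of the flank reads and ends between genes 25.7 to 33.4%.

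The second question was whether loss of Med1 alters these contacts. Mutant over WT, the log2 change of the whole flank was 0.03 ± 0.07 (SE, adjusted p = 0.833) with LPS and IL4 and -0.11 ± 0.07 (SE, adjusted p = 0.380) at rest, by edgeR over the 21 elements, of which 14.3% and 9.52% passed. Within the first and second library sets it was 0.13 and 0.02 with LPS and IL4, and -0.09 and -0.07 at rest. Read numbers moved with genotype, since each mutant library except LPS+IL4 replicate 2 was shallower than each WT library, and their part in these values was not tested beyond library size.

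At an adjusted p of 0.05 by edgeR, 0 of the 28 windows and 0 of the 12 genes passed for mutant over WT with LPS and IL4 or at rest, or for the difference in activation between the genotypes (background 0% of windows and of genes in each). DESeq2 called 0 as well. At an unadjusted p of 0.05, 0 windows passed with LPS and IL4, 1 at rest and 1 for the difference in activation, against 1.75%, 9.02% and 2.76% of all windows. Of the 12 genes, 0 passed the unadjusted threshold in each, against 3.24%, 7.94% and 5.67% of the 617 genes. The median log2 change of the windows, mutant over WT, was -0.05 with LPS and IL4 and -0.12 at rest, beside -0.19 and -0.16 over all windows. Among the genes, Gm30599 had every mutant resting library below every WT resting library (edgeR log2 -0.41 ± 0.20, adjusted p = 0.631, background 3.57%). The same order at rest was seen in the windows 112976025 to 112986024, 113006025 to 113016024 and 113016025 to 113026024. The reverse was seen in the window 112946025 to 112956024, and the share over all windows is not given here. The ratio of near to far flank changed by -0.09, mutant minus WT (exact permutation test within condition, two-sided, p = 0.285, adjusted 0.570), the bait-near share by -0.05 percentage points (p = 0.965, adjusted 0.965, exact test) and the share at gene starts by 0.64 (p = 0.605, adjusted 0.726, exact test).

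With LPS alone only covered ends can be counted. The mutant LPS libraries covered 344, 421 and 350 of the 927 flank ends, against 451, 412 and 479 in the WT LPS libraries. As a part of all covered chromosome 12 ends over 5 kb from the bait, this was 4.64, 4.68 and 5.25% in the mutant, against 4.63, 5.44 and 4.6% in WT. The counts overlapped only through mutant replicate 2 and WT replicate 2, and the parts overlapped throughout. By limma on the log2 part of covered ends, mutant over WT, the change of the flank was -0.01 ± 0.14 (SE, adjusted p = 0.962), with 0% of elements called. Of the windows and genes of the flank 0 and 0 passed by limma, also at an unadjusted p of 0.05, against 2.13% of all windows and 1.67% of all genes at the unadjusted threshold. The ends at the starts of Crip1 and Crip2 were covered in all 6 LPS libraries.

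The covered ends of the other groups are set beside these without a test, since the LPS libraries were mapped with another tool. With LPS and IL4 the mutant libraries covered 440, 615 and 528 flank ends and the WT libraries 530, 524 and 517; at rest the mutant libraries covered 425, 418 and 468 and the WT libraries 476, 468 and 514. Thinned to the 1016043 reads of the smallest library, flank ends made up 5.36, 4.45 and 4.79% of the covered chromosome 12 ends in the mutant LPS+IL4 libraries, against 5.65, 5.84 and 5.80% in the mutant resting libraries, and 4.78, 4.96 and 4.88% in the WT LPS+IL4 libraries, against 6.02, 6.10 and 5.92% in the WT resting libraries. As with the reads, every LPS+IL4 library was below every resting library in this part of the covered ends. At the same thinned depth, the mean percentage of the flank's own ends that was covered did not fall. It was 52.7% in mutant LPS+IL4 against 46.8% in mutant resting cells, and 53.1% in WT LPS+IL4 against 50.0% in WT resting cells. The libraries overlapped in both genotypes, and this difference was not tested. The share of a gene's ends covered, here without thinning, differed between genes in each group. As means of 3 libraries, it ran from 19.4% (mutant LPS) to 39.2% (mutant LPS+IL4) of the 91 ends of Jag2, which lie partly beyond the flank. Of the 89 ends of Tedc1 it was 52.8% (mutant LPS) to 64.8% (mutant LPS+IL4, with the same mean in 2 other groups). Of the 14 ends of Btbd6 it was 31.0% (mutant LPS) to 92.9% (WT resting).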

How the data were processed

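4C templates were cut with DpnII and Csp6I, per the labels' protocols, and reads were mapped to mm10 with Bowtie (resting and LPS+IL4) or Bowtie2 (LPS), per the submitters' processing notes; mapping parameters are not given in the sources used here. The 12 deposited files of the first deposit hold raw counts of reads at fragment ends, each given as 24 bp, and unread ends are not listed. The 6 deposited LPS files list covered ends only. Counts carry no molecular identifiers, so they are counts of PCR products.

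Reads were summed over the flank, over 10 kb windows from 1 Mb on the 3' side of the bait to 3 Mb on the other, and over the nearest RefSeq protein-coding gene within 10 kb (GRCm38.p6). Units averaging 10 reads or more were fitted with edgeR 4.0.16 in R 4.3.3 (robust quasi-likelihood, library size the chromosome 12 reads over 5 kb from the bait, no TMM), all 12 libraries together, two-sided, Benjamini-Hochberg over the 21 elements, 399 windows or 617 genes, threshold 0.05. The LPS libraries were fitted with limma 3.58.1 on log2 covered ends with a pseudocount of 1. Ratios and shares were tested by exact permutation over 400 arrangements. DESeq2 1.42.0, TMM, other library sizes, windows, caps, covered ends and left-out libraries were alternatives, and the fits were tested on simulated data. Python 3.11.15, pandas 2.3.3 and matplotlib 3.10.9 did the rest.

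Named were all protein-coding genes of the flank, the 3 highest and 3 lowest windows, each called window, the windows at the starts of Tmem121, Crip1, Crip2, Mta1 and Pacs2, and the 5 most read ends. The flank and these lists were chosen with earlier results of these data known. Equal replicate numbers were not taken as pairs, and no label gives a pairing. The deviations of same-numbered libraries correlated at -0.139 to 0.269 (Pearson's r over windows, a description). Between resting and LPS+IL4 libraries, r was 0.0964 to 0.269 in the mutant and -0.0707 to 0.0308 in WT. Within a genotype, these libraries of one number fell in the same library set. A shared source or preparation is possible and was not tested.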

Additional observations from a re-analysis of the deposited data

How the results depend on the processing

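The fall of the whole flank with LPS and IL4 kept its direction and passed under all 10 other settings, with log2 changes of -0.71 to -0.26 in the mutant and -0.79 to -0.30 in WT, and of -0.51 to -0.40 and -0.61 to -0.53 with 1 library left out. Window and gene counts were less stable, and the cause was not tested. Against 4 windows that passed in WT, 0 did on covered ends. Against 1 in the mutant, the count was 0 on covered ends and 2 with DESeq2, without the ends that separate the library sets, or with library set as a block. Cut into windows of 5 kb, which are other units, the flank had 1 that passed in WT and 2 in the mutant. Against 5 genes in WT, the count was 1 with TMM factors, 3 with the reads within 1 Mb as library size, 3 with DESeq2 and 1 on covered ends. Against 1 gene in the mutant, it was 0 with TMM factors, DESeq2 or reads capped at the 99th percentile, 3 on covered ends and 2 with no filter on low counts. Leaving out each library in turn gave 2 to 5 windows in WT, 1 to 2 in the mutant, 2 to 4 genes in WT and 0 to 1 in the mutant. With the replicate number as a block, 2 mutant genes passed in place of 1, and no other count moved by over 1.5 times. Resting and LPS+IL4 libraries of one genotype and number also share a library set, and what else they share is not labelled. The difference in the bait-near share with LPS and IL4 was -3.35 percentage points on covered ends (exact permutation test, adjusted p = 0.03). By the same test the adjusted p was 0.12 to 0.42 with 1 library left out and 0.03 to 0.3 over the other settings. These covered ends were not thinned to equal depth, and the part of depth in the difference was not tested. The genotype and interaction counts were 0 under every setting run, with edgeR, DESeq2 or limma. With 3 libraries per group, unequal read numbers (2470497 to 21074434) and no read numbers for the LPS libraries, small changes of single windows and genes are not detectable.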
